A study of Danio rerio with 2 samples.

Results

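The genes described here are 10 genes of vascular endothelial growth factor (VEGF) signalling in the larval zebrafish heart, chosen by symbol from the 32057 genes of the count table, and each symbol stood for exactly 1 gene. They are the ligand genes vegfaa, vegfab and vegfc, the receptor genes kdr, kdrl, flt1 and flt4, and the neuropilin genes nrp1a, nrp1b and nrp2a. RNA came from dissected, flash-frozen hearts at 96 hours post fertilisation. One library carries the genotype label foxc1a nju18, an allele of the forkhead factor gene foxc1a, and 1 library carries the genotype label TU, a wild-type strain. They are called the nju18 library and the TU library below, by these labels. Both libraries were otherwise labelled alike, as heart at the same age. The sources used here do not give what the allele changes in foxc1a or how many hearts were pooled.

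VEGF ligands are secreted proteins that endothelial cells read through receptor tyrosine kinases on their surface. Vegfa signals mainly through VEGFR2-type receptors, which zebrafish encode as kdr and kdrl, and Flt1 (VEGFR1) binds Vegfa with high affinity and limits what reaches them. Vegfc signals mainly through Flt4 (VEGFR3) and is known for venous sprouting and lymphatic growth. Neuropilins bind VEGFs as co-receptors and also bind class 3 semaphorins, so they serve axons as well as vessels. In a heart, muscle is a well-known source of Vegfa, and endocardium and coronary endothelium carry the receptors.

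With 1 library per genotype there is no spread between replicates. No test was made, and no difference below has a replicate check. The libraries held 17467109 (nju18) and 20049851 (TU) reads counted to genes. Levels that are compared between libraries are CPM, each gene's reads as a part of 1000000 counted reads, after TMM scaling, which assumes that most genes do not differ. One read was then worth 0.0633 CPM in the nju18 and 0.0451 CPM in the TU library. Ratios are nju18 over TU. The 95% intervals of ratios are exact binomial ones for the reads and cover counting error only. A log2 ratio has 1 CPM added to both values, and 2-fold on that scale is a fixed rule of size among the 12259 genes that reached 5 CPM in either library. The targeted gene foxc1a had 50.5 CPM in the nju18 library and 28.4 CPM in the TU library, a ratio of 1.78 (counting interval 1.6 to 1.98). Its transcript was not lower under the mutant label and so did not check the labels, and directions are those of the labels.

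vegfab was the 1 member past 2-fold with TMM scaling, and it was under 2-fold with total-count scaling. It was higher in the nju18 library, while the main receptor gene kdrl and its paralog kdr differed little with TMM scaling. The other 9 genes lay within 1.5-fold of equality with TMM scaling. Of the 10 genes, 8 reached 5 CPM in either library. Of those 8, 1 was at least 2-fold higher and 0 were at least 2-fold lower, beside 9.61% and 11.1% of all genes at that level. The share of 12.5% higher rests on 1 gene and is near the 9.61% of all genes. By the 1.5-fold rule the count was again 1 higher and 0 lower, beside 22.3% higher and 21.5% lower of all genes, 43.8% together. The median log2 ratio of the 8 was 0.17, and that of all genes was 0.04.

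**Figure D1:**
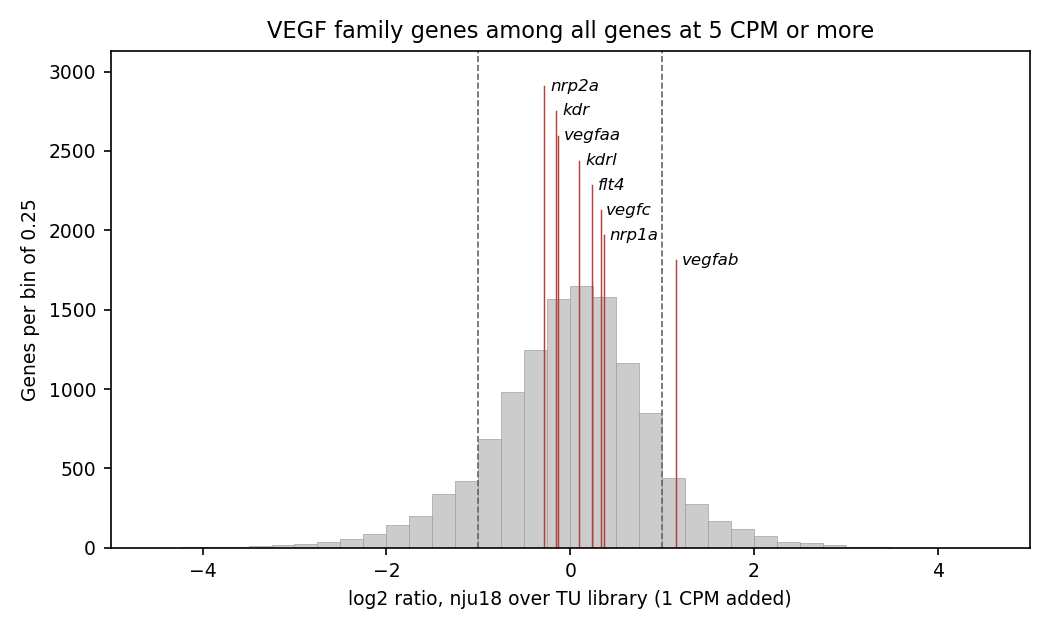
Histogram of log2 ratios, nju18 over TU with 1 CPM added, for all 12259 genes that reached 5 CPM in either library; red lines mark the 8 VEGF family genes at that level and dashed lines mark 2-fold. Only vegfab, at 1.15, lies beyond a dashed line, and the other 7 lie between -0.28 and 0.37.

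Among the ligands, vegfaa was the most abundant gene of the family per unit of length in both libraries. vegfaa (ENSDARG00000103542), the ligand gene known in zebrafish for driving the first vessel sprouts, had 784 reads in the nju18 library and 1208 in the TU library. Its scaled level was 49.6 CPM in the nju18 and 54.5 CPM in the TU library, a ratio of 0.911 (counting interval 0.832 to 0.998). The 2 libraries were thus close in vegfaa with TMM scaling, and with total-count scaling the ratio was 0.745.

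vegfab (ENSDARG00000034700), its paralog from the genome duplication of bony fishes, had 585 reads in the nju18 library and 357 in the TU library. That made 37 CPM in the nju18 and 16.1 CPM in the TU library, a ratio of 2.3 (counting interval 2.01 to 2.63) and a log2 ratio of 1.15. The nju18 library was the higher one in both raw and scaled reads, although it held fewer reads in all. The log2 ratio ranked 887th from the highest among 12259 genes, within the 9.61% that were at least 2-fold higher. With total-count scaling the ratio was 1.88 (counting interval 1.65 to 2.15), under 2-fold. The authors' deposited table gave vegfab a log2 fold change of 1.17 with an FDR of 0.368 and did not call it.

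vegfc (ENSDARG00000069640), the ligand of Flt4, was far lower than the vegfa genes per unit of length, at 2.02 FPKM in the nju18 and 1.87 FPKM in the TU library. It had 79 reads in the nju18 library and 84 in the TU library, and its level was 5 CPM in the nju18 and 3.79 CPM in the TU library, so that it only just reached the 5 CPM level. The ratio of 1.32 had a counting interval of 0.959 to 1.82, so a difference was not detectable at this depth.

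The same reads of vegfab and vegfaa also give the division of VEGF-A transcripts between the paralogs, which does not depend on how the libraries are scaled. It differed between the libraries but is not a separate observation. vegfab held 42.7% of the 1369 vegfaa and vegfab reads in the nju18 library (exact Clopper-Pearson interval 40.1 to 45.4%). In the TU library it held 22.8% of 1565 reads (20.8 to 25%). The ratio of vegfab to vegfaa in the nju18 library was thus 2.52 times that in the TU library (counting interval 2.15 to 2.97). Per unit of gene length, vegfab made up 39.8% of the FPKM of the pair in the nju18 and 20.7% in the TU library. The summed FPKM of both genes was 28 in the nju18 and 28.6 in the TU library. FPKM divides the reads of a gene by its length and by the total count of the library; in TMM-scaled CPM the sum was 86.7 in the nju18 and 70.6 in the TU library, a ratio of 1.23 (counting interval 1.14 to 1.32).

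**Figure D2:**
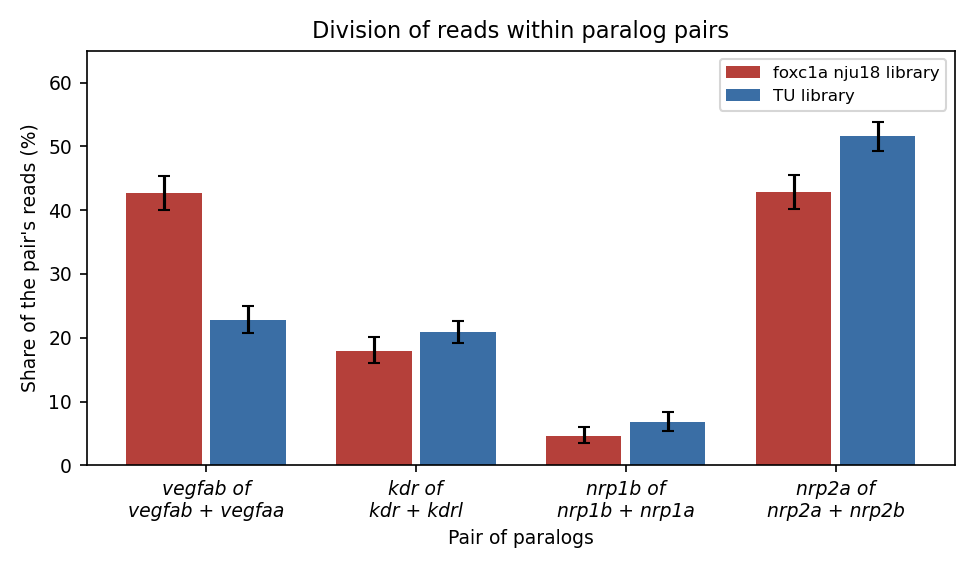
Share (%) of the reads of a paralog pair that fell on the named gene, in the nju18 (red, left bar) and the TU library (blue, right bar), with exact binomial intervals that cover counting error only. vegfab held 42.7% of its pair in the nju18 and 22.8% in the TU library, the widest gap of the 4 pairs drawn, whereas nrp2a held 42.8% in the nju18 and 51.6% in the TU library.

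With TMM scaling the receptor genes kdrl, kdr and flt4 were within 1.5-fold in the 2 libraries, and flt1 had too few reads to tell. kdrl (ENSDARG00000105215), the VEGFR2-type receptor gene that is widely used to mark zebrafish endothelium, had 1254 reads in the nju18 library and 1636 in the TU library. Its level was 79.4 CPM in the nju18 and 73.8 CPM in the TU library, with a ratio of 1.08 by TMM that turned to 0.88 by total-count scaling. kdr (ENSDARG00000017321), the second VEGFR2-type gene, had 276 reads in the nju18 library and 433 in the TU library. Its level was 17.5 CPM in the nju18 and 19.5 CPM in the TU library, a ratio of 0.895 (counting interval 0.767 to 1.04). By total-count scaling the ratio of kdr was 0.732 (0.627 to 0.853). Neither VEGFR2-type gene was past 1.5-fold under either scaling.

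flt4 (ENSDARG00000104453), the VEGFR3 gene, had 174 reads in the nju18 library and 203 in the TU library. Its level was 11 CPM in the nju18 and 9.15 CPM in the TU library, with a ratio of 1.2 (counting interval 0.977 to 1.48) by TMM and 0.984 by total-count scaling. flt1 (ENSDARG00000019371) was barely detected, with 13 reads in the nju18 library and 19 in the TU library, which made 0.823 CPM in the nju18 and 0.857 CPM in the TU library. The interval of its ratio ran from 0.436 to 2.05, so that even a 2-fold difference in flt1 was within counting error. The 4 receptor genes together had 109 CPM in the nju18 and 103 CPM in the TU library, a ratio of 1.05 (counting interval 0.988 to 1.12).

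kdr held 18% of the kdr and kdrl reads in the nju18 library (16.1 to 20.1%) and 20.9% in the TU library (19.2 to 22.7%). In the nju18 library the ratio of kdr to kdrl was 0.832 times that of the TU library (counting interval 0.7 to 0.987). The ratio of flt4 to kdrl was 1.12 times (0.896 to 1.39), that of flt1 to kdrl 0.893 times (0.404 to 1.91), and that of vegfc to its receptor gene flt4 1.1 times (0.746 to 1.61). All 3 of these intervals hold 1, whereas that of kdr to kdrl lies just below it.

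Of the neuropilin genes, nrp1a was somewhat higher and nrp2a somewhat lower in the nju18 library, both within 1.5-fold by TMM. nrp1a (ENSDARG00000102153), a co-receptor gene of vessels and axons, had 1080 reads in the nju18 library and 1171 in the TU library. That made 68.4 CPM in the nju18 and 52.8 CPM in the TU library, with a ratio of 1.3 (counting interval 1.19 to 1.41) that was 1.06 (0.974 to 1.15) by total-count scaling. Its paralog nrp1b (ENSDARG00000027290) was a minor gene, with 52 reads in the nju18 library and 85 in the TU library, which made 3.29 CPM in the nju18 and 3.83 CPM in the TU library. The interval of its ratio of 0.859 ran from 0.596 to 1.23.

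nrp2a (ENSDARG00000096546), whose counterpart in mammals binds VEGF-C as well as semaphorins, had 578 reads in the nju18 library and 992 in the TU library. Its level was 36.6 CPM in the nju18 and 44.7 CPM in the TU library, a ratio of 0.818 (counting interval 0.737 to 0.907) by TMM and 0.669 by total-count scaling. It was the lowest log2 ratio of the 8 genes at 5 CPM or more, at -0.28, and ranked 4083rd from the lowest among all genes at that level. nrp1b held 4.59% of the nrp1a and nrp1b reads in the nju18 library (3.45 to 5.98%) and 6.77% in the TU library (5.44 to 8.3%). The gene model behind the deposited FPKM was 2026 bases for nrp1b and 4950 for nrp1a, so that nrp1b made up 10.5% of the FPKM of the pair in the nju18 and 15.1% in the TU library. nrp2a held 42.8% of the reads of nrp2a and nrp2b in the nju18 library and 51.6% in the TU library, a pair that was added after its values had been seen.

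**Figure D3:**
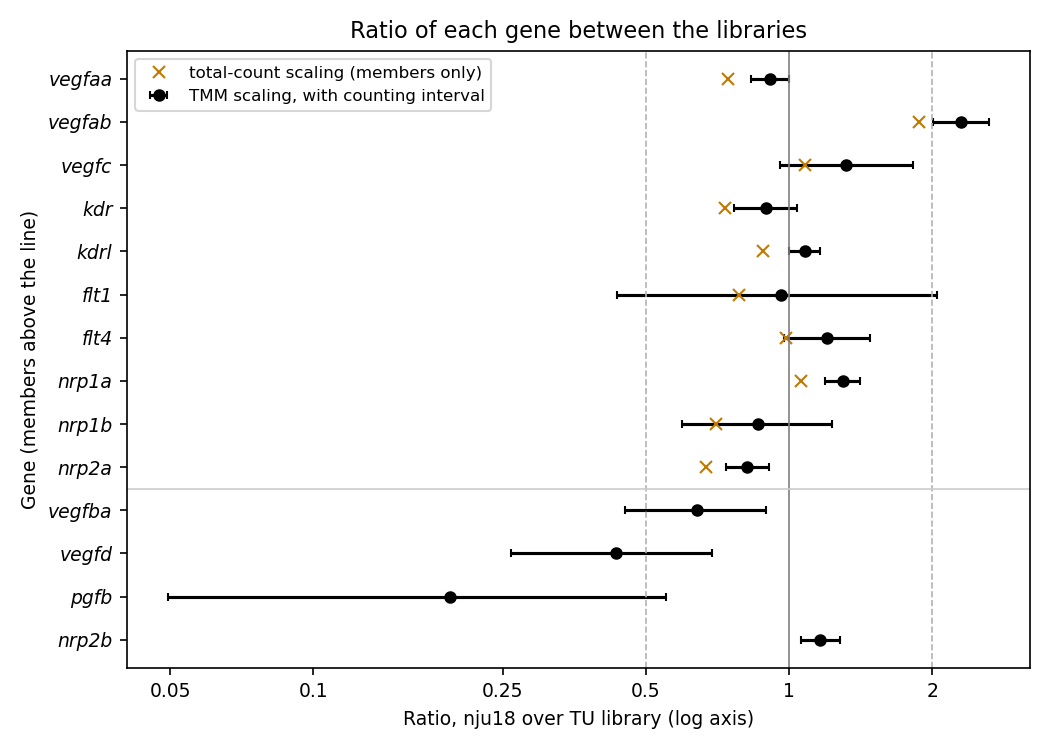
Ratio of each gene, nju18 over TU library on a log axis, with TMM scaling (black points, bars are 95% counting intervals) and, for the members, with total-count scaling (crosses). Dashed lines mark 2-fold and genes below the horizontal line are other genes of the family. vegfbb, with 2 reads in the nju18 and 1 in the TU library, is not drawn. vegfab has a ratio of 2.3, the other members lie between 0.818 and 1.32, and crosses lie left of every point because total-count scaling lowers every ratio with nothing added by 0.29 on the log2 scale.

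With TMM scaling, 2 of the 10 counting intervals lay above 1 (vegfab and nrp1a), 2 below it (vegfaa and nrp2a) and 6 held it. With total-count scaling 1 lay above (vegfab), 4 below (vegfaa, kdr, kdrl and nrp2a) and 5 held 1. vegfab was therefore the 1 gene of the 10 with an interval above 1 under both scalings. vegfaa and nrp2a were below 1 under both, which was fixed in advance because total-count scaling lowers every ratio. By TMM the interval of vegfaa ended just below 1, at 0.998. Total-count scaling moved the median log2 ratio of all genes at 5 CPM or more to -0.26. The authors' deposited table called 0 of the 10 genes, beside 4.24% of its 23256 genes called higher and 7.63% called lower. The FDR of the members in the authors' deposited table ran from 0.368 for vegfab to 0.971 for kdrl.

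Levels of different genes were compared by FPKM, the deposited values that take gene length into account. vegfaa came first in both libraries, with 16.9 FPKM in the nju18 and 22.7 FPKM in the TU library. In the nju18 library it was followed by nrp1a (12.5 FPKM), kdrl (12.4 FPKM) and vegfab (11.1 FPKM), whose exact Poisson intervals overlapped between neighbours. Next came nrp2a (6.09 FPKM) and kdr (2.94 FPKM), each apart from its neighbours. vegfc (2.02 FPKM), flt4 (1.9 FPKM) and nrp1b (1.47 FPKM) again overlapped between neighbours, and flt1 was last at 0.135 FPKM. vegfaa thus led the family in this library, and nrp1a, the VEGFR2-type gene kdrl and vegfab followed close together.

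In the TU library vegfab stood below nrp2a rather than above it. kdrl (14.1 FPKM), nrp1a (11.8 FPKM), nrp2a (9.1 FPKM), vegfab (5.93 FPKM) and kdr (4.01 FPKM) followed vegfaa in that order, with no overlap between neighbours. nrp1b (2.09 FPKM), flt4 (1.93 FPKM) and vegfc (1.87 FPKM) overlapped between neighbours. flt1 was last there too, at 0.172 FPKM.

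**Figure D4:**
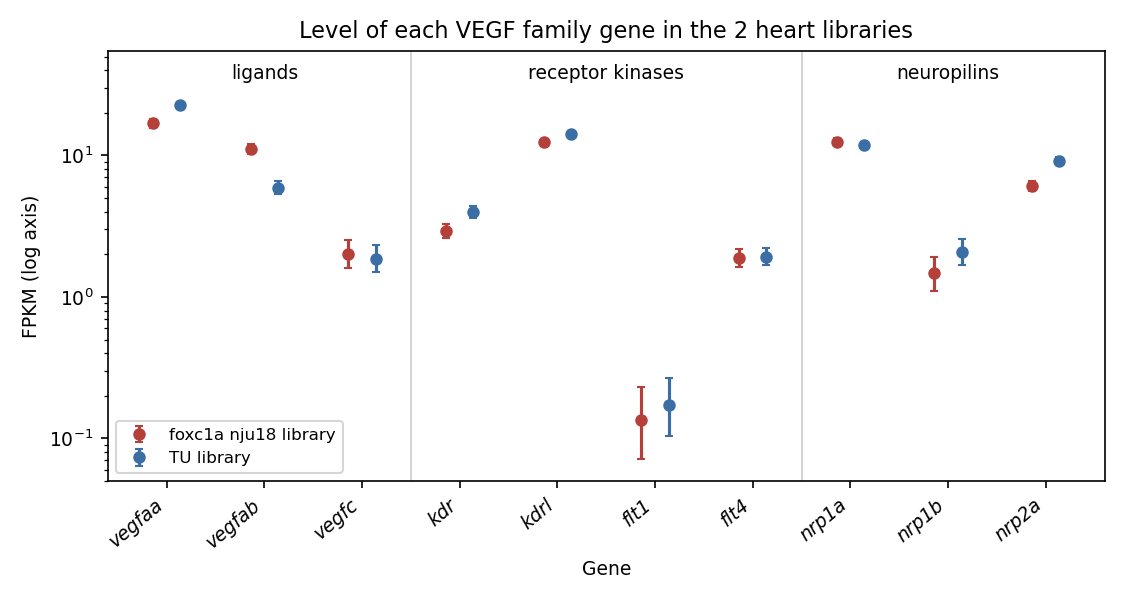
FPKM of each of the 10 genes on a log axis, in the nju18 (red, left point) and the TU library (blue, right point), grouped by role; bars are exact Poisson intervals of the reads. vegfab has 11.1 FPKM in the nju18 and 5.93 FPKM in the TU library, and flt1 is lowest in both.

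Bulk RNA cannot tell fewer cells of a type from less RNA per cell, so the members were also set against the reads of 24 endothelial marker genes, none of them a member. Markers of endothelium were present in both libraries: cdh5, which encodes vascular endothelial cadherin, had 326 CPM in the nju18 and 253 CPM in the TU library. pecam1, another marker of the list, went the other way, with 34.9 CPM in the nju18 and 53.8 CPM in the TU library. Both were named after their values were seen. The summed level of the list was 1310 CPM in the nju18 and 1180 CPM in the TU library, a ratio of 1.11 (counting interval 1.09 to 1.13), and no marker was at 0. Of 23 endothelial markers at 5 CPM or more, 2 were at least 2-fold higher (mmrn2b and mmrn2a, genes of an endothelial matrix protein) and 1 was lower (cldn5b, a tight junction gene, 56 CPM in the nju18 and 171 CPM in the TU library). Their median log2 ratio was 0.36, beside 0.04 for all genes, and 17 of the 23 had a log2 ratio above 0. The share of 8.7% higher is near the 9.61% of all genes, and with total-count scaling 0 were higher and the median was 0.07.

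Per 1000 endothelial marker reads, kdrl had 60.6 reads in the nju18 and 62.5 in the TU library, a ratio of 0.97 (counting interval 0.898 to 1.05). flt4 had 8.41 in the nju18 and 7.76 in the TU library. kdr had 13.3 in the nju18 and 16.5 in the TU library, with a ratio of 0.807 (counting interval 0.69 to 0.941). kdrl in proportion to the endothelial reads differed by less than counting error, and kdr was lower by this measure. On the same scale vegfab had 28.3 reads in the nju18 and 13.6 in the TU library, a ratio of 2.07 (counting interval 1.81 to 2.38). vegfaa had 37.9 in the nju18 and 46.2 in the TU library. The proportions of kdrl and vegfab depended on cldn5b, the marker past 2-fold downwards: without it the other 23 markers summed to 1254 CPM in the nju18 and 1009 CPM in the TU library, a ratio of 1.24. The ratio of kdrl was then 0.866 (counting interval 0.802 to 0.936), that of kdr 0.721 (0.617 to 0.841) and that of vegfab 1.85 (1.62 to 2.12), under 2-fold. That alternative was chosen after seeing the data.

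Markers of other cells differed far more between the libraries than the VEGF genes did. Of 13 cardiomyocyte markers at 5 CPM or more, 7 were at least 2-fold higher and 0 lower, and their sum was 25198 CPM in the nju18 and 8929 CPM in the TU library. Of 16 skeletal muscle markers, 12 were higher and 0 lower, with sums of 16760 CPM in the nju18 and 3667 CPM in the TU library; mylpfa was at 0 in the TU library. Muscle is among the tissues that make Vegfa, and vegfab lay in the same direction as these markers while vegfaa did not. Of 17 neuron and retina markers, 14 were lower and 0 higher, with sums of 515 CPM in the nju18 and 3327 CPM in the TU library. Neurons carry neuropilins, and nrp2a lay in the direction of these markers while nrp1a did not. Of 6 red cell markers at that level, 5 were lower, and the list summed to 867 CPM in the nju18 and 2588 CPM in the TU library. Below that level hbbe3 had 22 reads in the nju18 and 4 in the TU library, a ratio of 7.72 (counting interval 2.62 to 30.8). alas2 was also higher, with a ratio of 2.81 (1.43 to 5.77), whereas hbae5 had 0.446 (0.278 to 0.695) and gata1a 0.702 (0.216 to 2.02). These low genes were named after their values were seen. The neuron and retina list includes opsin genes of photoreceptors, which are not heart cells. One of them, opn1sw1, had 90.2 CPM in the nju18 and 1087 CPM in the TU library, where the endothelial gene cdh5 had 253 CPM. How much tissue other than heart each library held was not measured. The part of these differences in the values of the VEGF genes, vegfab and nrp2a among them, was not tested.

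Markers of smaller cell groups moved less in sum, but single genes of them moved more. Of 11 smooth muscle and epicardium markers 0 were higher and 3 lower, with sums of 738 CPM in the nju18 and 932 CPM in the TU library. The share of 27.3% lower stands beside 11.1% of all genes. The lower ones were tbx18 (3.93 CPM in the nju18 and 13.6 CPM in the TU library), tcf21 (3.04 CPM and 10.4 CPM) and elnb (199 CPM and 470 CPM). The sum mixes directions, since 4 of the 11 had a log2 ratio above 0. These lists are short, so each share rests on few genes. Of 3 leukocyte markers at 5 CPM or more, 0 were higher and 1 was lower by 2-fold, and the list summed to 28.6 CPM in the nju18 and 39.7 CPM in the TU library, with lyz at 0 in both and coro1a at 0 in the nju18 library. nphs1, which encodes nephrin in podocytes, the filtering cells of the kidney that make Vegfa, had 5 reads in the nju18 and 141 in the TU library. podxl of the same list went the other way, with 130 CPM in the nju18 and 109 CPM in the TU library. The liver gene fabp10a was also higher in the nju18 library, with 34.7 CPM in the nju18 and 10.6 CPM in the TU library. Of 5 podocyte, liver and thyroid markers at 5 CPM or more, 2 were higher by 2-fold or more and 1 was lower, and the list summed to 382 CPM in the nju18 and 245 CPM in the TU library. Over all genes the shares were 9.61% higher and 11.1% lower.

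The other genes of the VEGF family that matched the count table were the ligand genes vegfba, vegfbb, vegfd and pgfb and the co-receptor gene nrp2b. nrp2b had 48.8 CPM in the nju18 and 42 CPM in the TU library, a ratio of 1.16 (counting interval 1.06 to 1.28). Per unit of length it was above nrp2a in the nju18 library, at 9.23 FPKM (8.59 to 9.9) beside 6.09 FPKM (5.6 to 6.6), and close to it in the TU library, at 9.71 FPKM beside 9.1 FPKM. The minor ligands were scarce. vegfd, which encodes another Flt4 ligand, had 24 reads in the nju18 and 78 in the TU library, a ratio of 0.432 (counting interval 0.261 to 0.69). pgfb, a placental growth factor gene, had 4 reads in the nju18 and 29 in the TU library, a ratio of 0.194 (counting interval 0.0495 to 0.552). vegfba had 3.29 CPM in the nju18 and 5.14 CPM in the TU library, a ratio of 0.64 (counting interval 0.452 to 0.897). vegfbb had 2 reads in the nju18 and 1 in the TU library, a ratio of 2.81 with a counting interval of 0.146 to 166. Of these 5 genes, 2 reached 5 CPM, and 0 of the 2 were past 2-fold, beside 9.61% higher and 11.1% lower of all genes. The authors' deposited table called none of the 5, with the lowest FDR at pgfb (0.0553).

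Genes of the VEGF-C maturation list at 5 CPM or more were mostly lower or near equal. The list holds secreted factors along with proteases that act on pro-Vegfc. Of its 10 genes, 6 reached 5 CPM, 0 of them were past 2-fold in either direction, and the median log2 ratio was -0.3. Over all genes the shares past 2-fold were 9.61% higher and 11.1% lower. With total-count scaling 2 were at least 2-fold lower and the median was -0.58. pcsk7 and furinb, proprotein convertase genes, had ratios of 0.49 and 0.495, and pcsk5b, another convertase gene, had 1.72. The list summed to 152 CPM in the nju18 and 176 CPM in the TU library. svep1, which encodes a matrix protein needed for lymphatic growth in zebrafish, had 19.3 CPM in the nju18 and 19.9 CPM in the TU library. Below 5 CPM, the genes of the list had few reads and went both ways. ccbe1 was higher, with 27 reads in the nju18 and 15 in the TU library, a ratio of 2.53 (counting interval 1.3 to 5.11). pcsk5a was lower, with 8 reads in the nju18 and 44 in the TU library, a ratio of 0.255 (0.104 to 0.548). Also lower were adamts3 and adamts14, protease genes whose products cleave pro-Vegfc. adamts3 had 16 reads in the nju18 and 85 in the TU library, a ratio of 0.264 (counting interval 0.145 to 0.454), and adamts14 had 9 in the nju18 and 78 in the TU library, a ratio of 0.162 (0.0714 to 0.324). The authors' deposited table called both lower, adamts3 with an FDR of 0.0225 and adamts14 with an FDR of 0.00103. svep1, ccbe1, pcsk5a, adamts3 and adamts14 were chosen for mention after their values were seen.

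Hypoxia-inducible factors drive transcription of VEGF-A genes when oxygen is low, and the hypoxia list holds them together with genes of the oxygen sensor. Of 10 genes of the hypoxia list at 5 CPM or more, 2 were lower by 2-fold or more and 0 were higher, and the median log2 ratio was -0.22. The share of 20% lower stands beside 11.1% of all genes. With total-count scaling the median of the list was -0.55 (11 genes) and that of all genes -0.26. With TMM scaling, where the median of all genes was 0.04, only 1 of the 10 had a log2 ratio above 0. It was hif1aa, named after its value was seen, with a ratio of 1.22 (counting interval 0.986 to 1.52). The lower genes were hif1al2, a hypoxia-inducible factor alpha-like gene, with 2.03 CPM in the nju18 and 11.7 CPM in the TU library, and egln2, a prolyl hydroxylase gene of the oxygen sensor, with 2.28 CPM in the nju18 and 7.26 CPM in the TU library. hif1al, the most abundant of the 4 genes named by size of ratio, had 133 CPM in the nju18 and 203 CPM in the TU library, a ratio of 0.655. The authors' deposited table called hif1al2 (FDR 7.11e-05) and egln2 (FDR 0.0357) lower.

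Below the receptors, 41 of 50 matched signalling genes reached 5 CPM. Of these, 5 were lower by 2-fold or more and 0 were higher, and the median log2 ratio was -0.19. The share of 12.2% lower is close to the 11.1% of all genes, and the count was 2 with 5 CPM added and 0 with a filter of 20 CPM. The lower ones were the calcineurin subunit genes ppp3ca and ppp3cb, the kinase genes akt3b and fyna, and prkcba, a protein kinase C gene named after its value was seen. ppp3ca had 3.86 CPM in the nju18 and 13.5 CPM in the TU library, and fyna had 4.75 CPM in the nju18 and 14.3 CPM in the TU library.

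Genes of the angiogenic response list, known to follow VEGF signals or to mark tip, arterial and venous cells, went both ways. Of 18 at 5 CPM or more, 3 were higher by 2-fold or more and 1 was lower, and the median log2 ratio was 0.29 (0 by total-count scaling). The shares of 16.7% higher and 5.56% lower stand beside 9.61% and 11.1% of all genes, and the number higher was 2 with total-count scaling. dll4, the Notch ligand gene of tip and arterial cells, had 122 CPM in the nju18 and 27.2 CPM in the TU library, which is 4.49 times (4.09 to 4.93). apln, a peptide ligand gene of sprouting endothelium, had 308 CPM in the nju18 and 127 CPM in the TU library, a ratio of 2.43, and its receptor gene aplnra had 113 CPM in the nju18 and 44.5 CPM in the TU library, a ratio of 2.53. egr3, an immediate early gene that VEGF induces in human endothelial cells, was the lower one, with 48.4 CPM in the nju18 and 116 CPM in the TU library. By the authors' deposited table dll4 was called higher (FDR 0.000231) and apln, aplnra and egr3 were not called.

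On the semaphorin side of the neuropilins, 13 of 17 matched genes reached 5 CPM, of which 1 was past 2-fold upwards and 2 downwards, with a median log2 ratio of -0.61. The shares of 7.69% higher and 15.4% lower stand beside 9.61% and 11.1% of all genes, and the number lower was 5 with total-count scaling (median -0.88) and 0 with 5 CPM added. sema3fb, a class 3 semaphorin gene, was the higher one, with 19.4 CPM in the nju18 and 6.31 CPM in the TU library. sema3bl had 1.08 CPM in the nju18 and 5.82 CPM in the TU library, and sema3d had 19.8 CPM in the nju18 and 41.3 CPM in the TU library. Of the 13 genes, 3 had a log2 ratio above 0 with TMM scaling, where the median of all genes was 0.04. Endocardial markers (6 genes, median log2 ratio 0.2) and lymphatic markers (4 genes, 0.37) had 0 genes past 2-fold. With total-count scaling the endocardial median was -0.08, with 1 gene at least 2-fold lower. The lymphatic median was then -0.03, with 2 genes at 5 CPM or more. stab2, a scavenger receptor gene of lymphatic and venous endothelium, had 5.07 CPM in the nju18 and 2.62 CPM in the TU library.

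**Figure D5:**
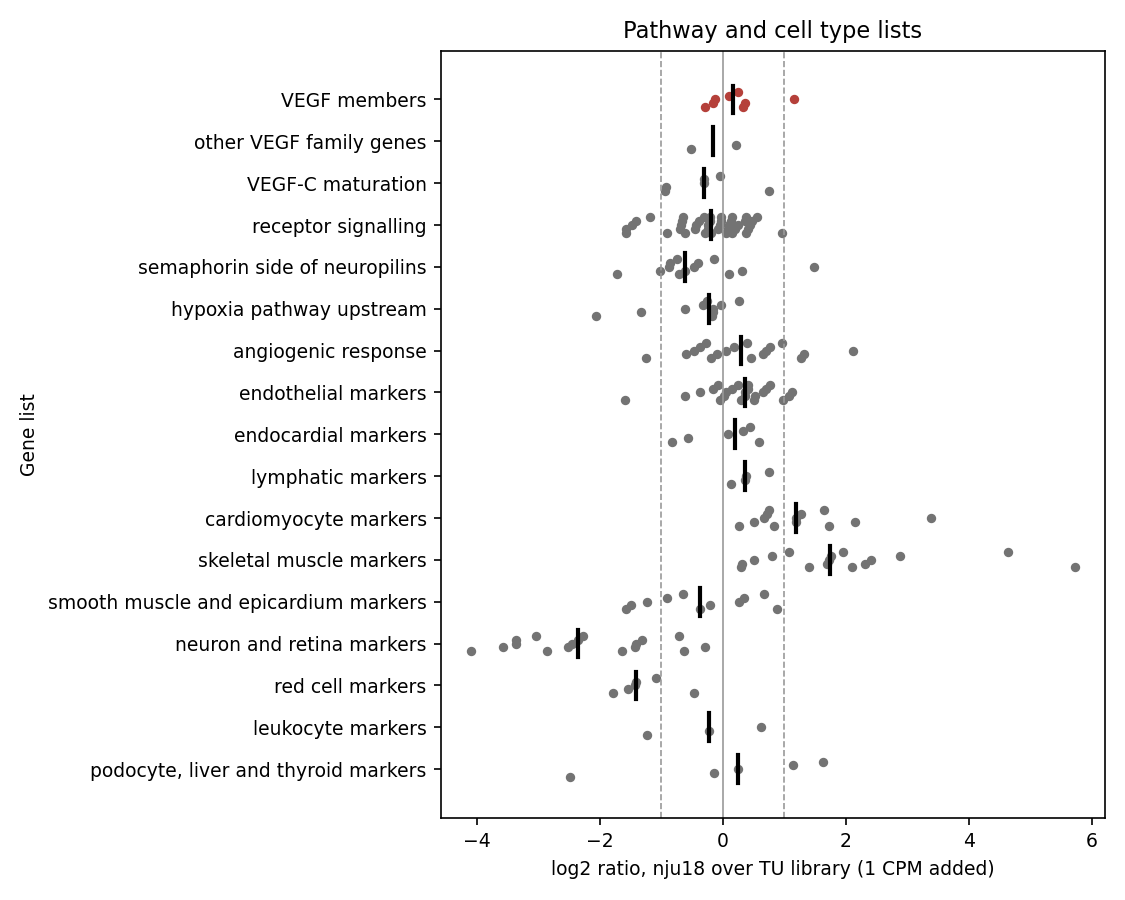
Log2 ratio, nju18 over TU with 1 CPM added, of each gene at 5 CPM or more in the VEGF genes (red) and in each pathway or cell type list (grey); black bars are medians and dashed lines mark 2-fold. The 8 VEGF genes sit close to 0 apart from vegfab, while skeletal muscle markers have a median of 1.74 and neuron and retina markers one of -2.36.

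The position of the genes bears on how firmly reads can be given to them, since the sources used here do not give the strand setting of the counting. In the RefSeq annotation of the assembly GRCz12tu, which is not the build of the counts and is used here for neighbours only, vegfab, kdrl, flt1, flt4 and nrp2a overlapped no other gene. vegfaa, vegfc, nrp1a and nrp1b each overlapped a gene of a long non-coding RNA, and kdr overlapped another protein-coding gene. Their counts would be less certain if the annotation used for counting held the same overlaps, which was not checked. The neuropilin paralogs kept matching neighbours: nrp1a lay between itgb1a and pard3aa, nrp1b between pard3ab and itgb1b, and nrp2a next to pard3ba. kdr lay beside kita, a receptor kinase gene of pigment cells.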

How the data were processed

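RNA sequencing of dissected hearts gave 1 library per genotype, and groups were taken from the genotype label. Per the submitters' processing notes, the tools were HISAT2, featureCounts, Trimmomatic and bcl2fastq and the build GRCz11, without versions, roles or settings. For each Ensembl gene the authors deposited a raw read count. The deposited FPKM equalled the count over the total count and 1 length per gene (lengths agreed within 0.01 bases between libraries for 21662 of 21662 genes with reads in both), so FPKM is total-count scaled. The authors' deposited comparison table, named for EBSeq in its file name, holds a normalised signal (the count over size factors of 0.854 in the nju18 and 1.17 in the TU library), a fold change (ratio), its log2 and an FDR, used as a q-value with a threshold of 0.05.

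Counts were scaled with TMM factors of 0.904 (nju18) and 1.11 (TU) from edgeR 4.0.16 in R 4.3.3. Intervals came from scipy 1.17.1 in Python 3.11.15. The labels name no molecular identifiers, so reads are not taken as independent molecules and intervals cover counting error only. The members and the other 16 lists were chosen with earlier results of these data known. Named are all members, all matched genes of the family, and up to 4 genes per further list with the largest absolute log2 ratio at 5 CPM or more, with exceptions stated. Of 258 symbols on the 17 lists, 245 matched 1 gene. Alternatives were DESeq2 1.42.0 size factors, total-count scaling, a total that leaves out genes over 1%, equal endothelial marker reads, other added values, filters and fold rules, the deposited FPKM, means, and an FDR of 0.01. On counts simulated for nju18 against TU (11540 genes, Poisson error only), 100% of the 200 genes changed 4-fold passed the 2-fold rule and 0 of 11340 unchanged genes did. The changed genes were drawn from the more abundant ones, and the simulated libraries otherwise shared 1 mean profile. That run checks the computation only and cannot tell how often a ratio near 2-fold arises between libraries that differ in tissue.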

Additional observations from a re-analysis of the deposited data

How the results depend on the processing

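vegfab kept its direction under every scaling and added value tried, with log2 ratios from 0.81 to 1.19, but 0 members were past 2-fold with total-count scaling (0.88), with a total that leaves out genes over 1% (0.90), with 5 CPM added (0.99) and with the deposited FPKM (0.81), or by the 4-fold rule. The cause is the scaling or the added value itself, since vegfab lies close to 2-fold. Its ratio to vegfaa does not depend on scaling. The median of the 8 members was 0.17 and moved to -0.18 with total-count scaling (7 genes, without vegfc), -0.08 without genes over 1% in the total, -0.04 with equal endothelial marker reads (7 genes, likewise) and -0.09 with the deposited FPKM; the log2 ratios of kdrl (-0.18 to 0.11) and flt4 (-0.02 to 0.26) change sign with the scaling, and the other 8 members kept theirs. Over all genes, 1178 were higher by 2-fold or more and 1358 lower (46.5% higher); the counts were 702 and 2166 (24.5% higher) with total-count scaling, 777 and 2252 (25.7%) without genes over 1% in the total, 897 and 1742 (34%) with equal endothelial marker reads, 719 and 661 with 5 CPM added, 549 and 1541 (26.3%) with the deposited FPKM, 1493 and 2108 with no filter, 695 and 508 (57.8%) with the 20 CPM filter, 2733 and 2638 by the 1.5-fold rule and 178 and 255 by the 4-fold rule. The authors' deposited table called 0 members at an FDR of 0.05 and 0 at 0.01. No paired analysis was possible because each genotype has 1 library, and no library could be left out. Depth limits flt1 (13 reads in the nju18 and 19 in the TU library), nrp1b, vegfc and the minor ligands. With total-count scaling the number of cardiomyocyte markers past 2-fold was 4 in place of 7. For the hypoxia list the number lower was 0 with the 20 CPM filter in place of 2.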
